A study of Mus musculus with 59 samples.

Results

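The genes described here are a list of 37 named interferon-induced genes, followed across 12 groups of mouse livers. A gene was taken to be measured where a probe set of the array carried its symbol and no other, and among several such probe sets the one brightest on average over the 59 arrays stood for it. By this rule 35 of the 37 genes were measured, out of 18193 genes with such a probe set. Isg15 and Ifi44 were not analysed here. The rule used no measured difference between groups, but the list was drawn up with earlier results of these arrays known.

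Interferons are secreted proteins that warn tissue of infection. Type I interferons act through a receptor whose kinases activate a transcription factor complex that holds STAT2 and IRF9, which switches on genes such as Ifit1 and Rsad2 from an element in their promoters. Type II interferon acts through a receptor of its own and favours genes such as Irf1, the guanylate-binding proteins and the immunoproteasome. Both programmes run at a low level in uninfected liver, in hepatocytes and in resident immune cells, and glucocorticoids are known to restrain them.

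Liver RNA of male C57BL/6 mice, which were 6 weeks old and had 2 weeks to acclimate to their diet, was hybridised to 1-colour Affymetrix arrays, 1 array per sample. In the first experiment, lasting 5 weeks, mice ate AIN-76A, a purified diet, or LRD-5001, a commercial laboratory diet. On each diet they received no added arsenite, sodium arsenite at 10 ppb in drinking water, at 100 ppb in water, or at 10 ppb in food. In the second, mice on AIN-76A received an intraperitoneal injection of saline, of 1 mg/kg sodium arsenite, of 1 mg/kg dexamethasone, a synthetic glucocorticoid, or of both agents, and livers were taken 8 hours later. Each group holds 5 arrays except AIN-76A with 100 ppb arsenite in water, which holds 4. Samples of a group are called biological replicates in the labels. The p-values therefore rest on the spread among these samples, and precision is limited by how many arrays there are. All differences below are on the log2 scale of the deposited values, from limma with Benjamini-Hochberg adjustment over 45037 probe sets, and "passed" means an adjusted p under 0.05.

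The array medians ran from 2.42 to 2.59 and the upper quartiles from 3.74 to 4.31. In every group 1 array, 12 in all, stood at the low end of the first principal component of within-group deviations, which held 27.6% of that variance. The upper quartile of these 12 arrays was lower than that of the rest of their group, by 0.27 on average. They are called the arrays set apart here, and counts of called members and printed medians that move by over 1.5 times without them are given both ways. Hepatocyte markers (6 genes) averaged between 12.4 and 12.9 on every array, so the labelled tissue was borne out.

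Of the 35 measured members, 27 had a mean level above 4.11, the upper quartile of all probe sets, and Mx1 was the 1 member below their median of 2.46. The brightest were Iigp1 at 9.83, Ifi35 at 8.41 and Ifih1 at 7.14, each a mean over the 59 arrays. Levels of different probe sets do not rank genes by abundance, since each probe set binds with its own strength. For 17 members several probe sets were present and for 18 a single one. Guanylate-binding proteins and Ifit genes belong to families of similar sequence, and whether a probe set also reads a relative was not tested.

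A set of 6 promoters is shown because these members fell after dexamethasone and hold the letters GAAA, any 2 bases and GAAA again, the core of the element through which the type I complex acts. The sequences are from RefSeq on GRCm38.p6, written 5′ to 3′ on the gene's strand, and capitals mark this motif or its reverse complement. Ifih1 lies on the minus strand at chr2:62646206-62646231, just after its start site. The other stretches end at or before the base ahead of the start site. Stat2 is at chr10:128270251-128270310 (plus strand), Igtp at chr11:58199497-58199555 (plus), Rsad2 at chr12:26456453-26456702 (minus), Ifit3 at chr19:34583279-34583528 (plus) and Ifit1 at chr19:34640639-34640888 (plus).
Ifih1: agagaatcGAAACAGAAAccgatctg
Stat2: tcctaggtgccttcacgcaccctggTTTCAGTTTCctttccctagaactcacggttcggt
Igtp: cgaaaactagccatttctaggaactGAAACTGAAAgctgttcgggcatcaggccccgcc
Rsad2: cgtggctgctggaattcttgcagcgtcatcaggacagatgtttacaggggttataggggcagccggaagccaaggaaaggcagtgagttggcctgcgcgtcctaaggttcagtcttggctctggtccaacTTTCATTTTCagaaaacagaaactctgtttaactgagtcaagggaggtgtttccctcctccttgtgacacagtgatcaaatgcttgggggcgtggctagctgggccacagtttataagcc
Ifit3: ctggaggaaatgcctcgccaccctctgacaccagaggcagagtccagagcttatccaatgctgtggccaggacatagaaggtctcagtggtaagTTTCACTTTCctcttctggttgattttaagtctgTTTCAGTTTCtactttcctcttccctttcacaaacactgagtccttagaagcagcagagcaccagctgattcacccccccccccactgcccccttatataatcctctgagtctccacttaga
Ifit1: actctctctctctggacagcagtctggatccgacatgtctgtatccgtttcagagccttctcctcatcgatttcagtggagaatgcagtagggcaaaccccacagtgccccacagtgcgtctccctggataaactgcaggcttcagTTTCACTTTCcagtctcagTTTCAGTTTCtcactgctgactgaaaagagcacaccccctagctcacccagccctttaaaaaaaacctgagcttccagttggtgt
Each window searched ran from 250 bases before to 50 bases after the start site, and both strands were read. Of the 25 members with a window, 12 held the motif (48.0%), against 3.44% of all 32851 windows and 3.99% of 27025 genes. Ifit1, Ifit3, Gbp3 and Irgm1 each held it at more than 1 position. Among 11 members with a window that fell after dexamethasone, 6 held it (54.5%), and among 14 that did not pass, 6 held it (42.9%): Cxcl10, Ddx58, Gbp2, Gbp3, Gbp7 and Irgm1. These matches describe the letters of the windows and show no binding. No window was matched for Rtp4, Usp18, Oas2, Dhx58, Mx1, Mx2, Gbp6, Iigp1, Parp14 and Zbp1.

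Of the comparisons made, that of dexamethasone with saline changed the most members. Against saline 15 of the 35 fell, none rose and 20 did not pass. Over all genes 464 of 18193 passed in this comparison, 2.55%, and 1.21% were lower. The difference lay below 0 for 32 of 35 members, against 54.6% of all genes, and its median was -0.87 against -0.02 over all genes. The lower group did not overlap with saline for 18 members, against 2.71% of all genes. At an unadjusted p under 0.05 there were 26 members, against 14.5% of all genes. The members called lower covered most roles. Among them were transcription factors (4 of 5), tetratricopeptide proteins (2 of 3) and other antiviral effectors (5 of 8). The rest were GTPases (2 of 7), RNA sensors (1 of 3) and the immunoproteasome (1 of 3). None passed among the oligoadenylate synthetase family (0 of 3), the chemokines (0 of 2) or Usp18. In bulk liver, fewer cells of a type and less RNA per cell cannot be told apart.

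**Figure D1:**
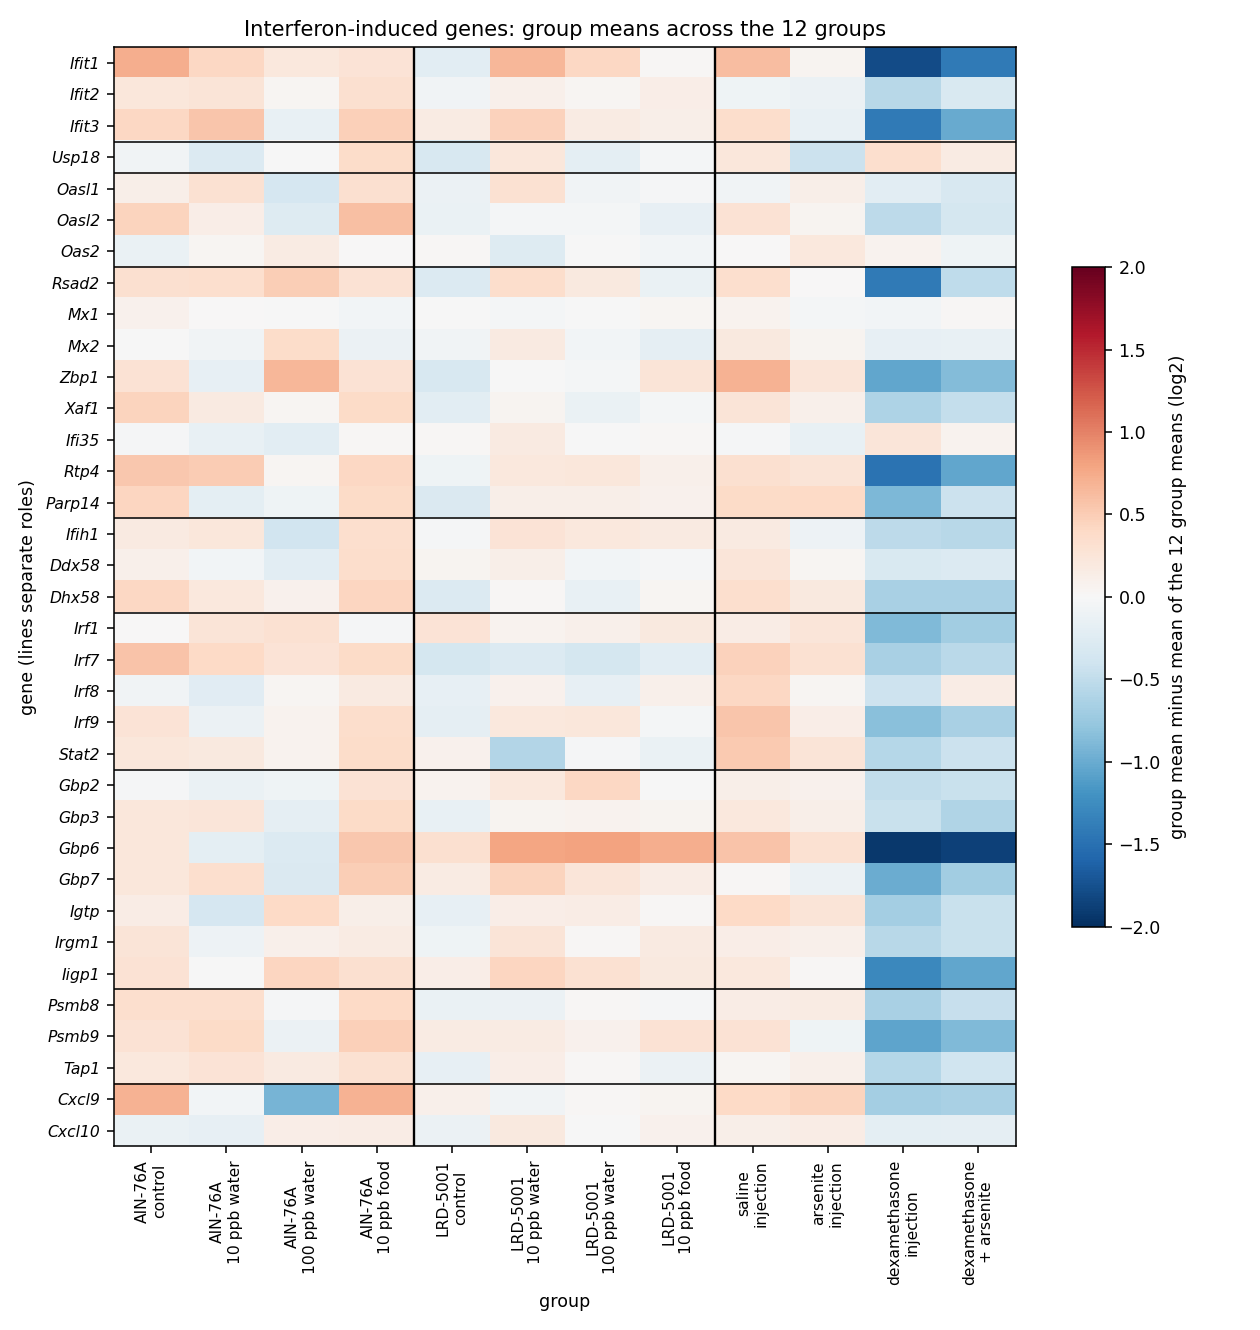
Each row is a member and each column a group. Colour gives the group mean minus the mean of the 12 group means on the log2 scale, blue lower and red higher. The dexamethasone columns at the right are blue for most members, deepest for Gbp6 and Ifit1.

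Gbp6, a guanylate-binding GTPase of cell-autonomous defence, changed most. In the saline-injected mice it read 5.15, 4.90, 5.49, 5.54 and 4.78, and after dexamethasone 2.75, 2.51, 2.77, 2.42 and 2.97. Every dexamethasone array lay well below every saline array. The difference was -2.49 ± 0.22 (SE), 5.61-fold lower (limma, adjusted p = 5.142e-06). A second probe set of the gene fell by 2.01 (adjusted p = 0.000369). Across the 12 groups its mean lay between 4.34 and 5.41 in the 10 groups without dexamethasone, with SDs of 0.25 to 1.71, and at 2.69 ± 0.22 and 2.74 ± 0.37 (SD, n = 5) in the 2 groups with it. By array the separation was not complete: replicates B and C given 100 ppb in water on AIN-76A read 2.63 and 3.24, and AIN-76A control replicate C read 3.05, within the range of 2.4 to 3.27 of the groups given dexamethasone.

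Ifit1 and Ifit3, of the family of tetratricopeptide proteins, fell together. Ifit1 read 5.28, 5.69, 5.63, 5.30 and 5.43 after saline and 3.20, 2.97, 2.83, 2.93 and 3.35 after dexamethasone. Every saline array stood above every dexamethasone array, and the difference was -2.41 ± 0.39 (adjusted p = 0.00181). Ifit3 read 5.27, 5.47, 5.29, 5.83 and 5.52 after saline against 4.16, 3.20, 3.77, 3.44 and 4.0, a difference of -1.76 ± 0.30 (adjusted p = 0.00303), again without overlap. Ifit2, the remaining member of that family, was dim and differed by -0.46 (adjusted p = 0.323).

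Of the transcription factors, Irf9 and Stat2 form part of the complex that answers type I interferon, Irf7 amplifies interferon production and Irf1 serves the type II response. Irf9 read 5.21, 5.41, 5.98, 5.46 and 5.56 after saline and 4.01, 4.32, 4.43, 3.86 and 4.06 after dexamethasone, with no overlap. Its difference was -1.39 ± 0.22 (adjusted p = 0.00127). Irf7 read 7.10, 6.05, 6.10, 6.79 and 6.63 against 5.50, 5.72, 5.39, 5.44 and 5.12, a difference of -1.10 ± 0.23 (adjusted p = 0.0170). Irf1 read 6.78, 6.62, 6.19, 7.22 and 6.27 against 5.77, 5.56, 5.75, 5.44 and 5.36, a difference of -1.04 ± 0.23 (adjusted p = 0.0250). For both genes every saline array stood above every dexamethasone array. Stat2 was the called member whose groups overlapped: saline replicate B, at 4.01, lay below dexamethasone replicates C and D, at 4.05 and 4.16. Its difference was -1.09 ± 0.27 (adjusted p = 0.0409), and a second Stat2 probe set fell by 0.74 (adjusted p = 0.00797). Irf8, a factor of myeloid and dendritic cells, differed by -0.83 without overlap and did not pass (adjusted p = 0.0866).

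**Figure D2:**
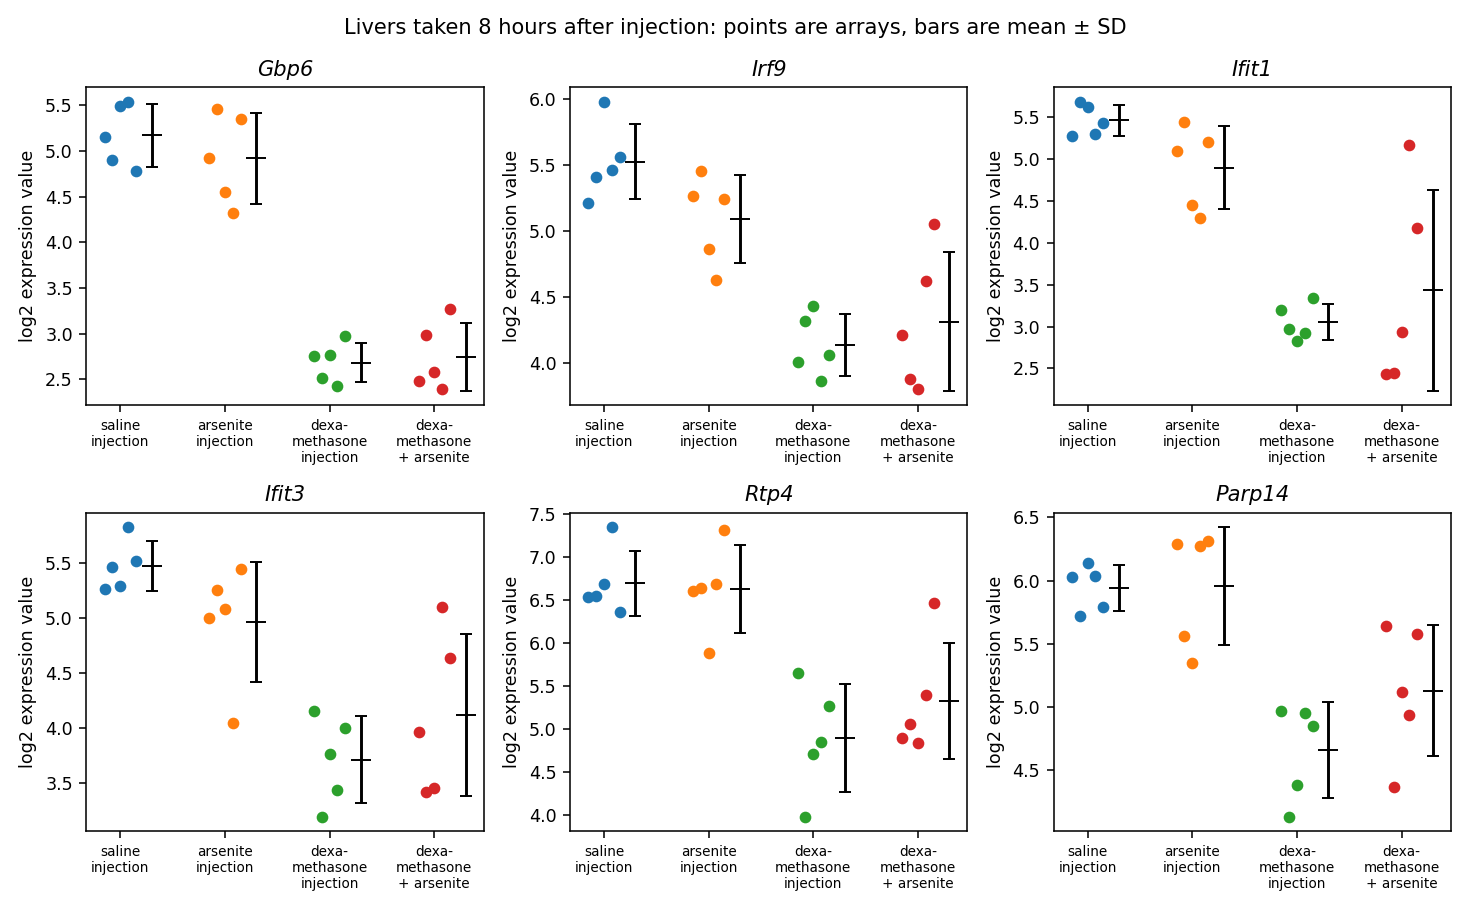
Expression values on the log2 scale (vertical) of 6 members in the 4 injection groups (horizontal). Points are arrays and black bars are the mean ± SD of 5 arrays. In all 6 panels the dexamethasone arrays lie below every saline array, and with both agents the spread of Ifit1 is wide, from 2.43 to 5.17.

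The other antiviral effectors that fell were Rtp4, Rsad2, Zbp1, Parp14 and Xaf1. Rtp4, a chaperone induced by type I interferon, read 6.54, 6.55, 6.68, 7.35 and 6.36 after saline and 5.65, 3.98, 4.71, 4.85 and 5.26 after dexamethasone (difference -1.81 ± 0.33, adjusted p = 0.00506). Rsad2, or viperin, which makes a nucleotide that stops viral polymerases, read 6.13, 6.10, 6.52, 6.01 and 5.79 against 4.88, 3.74, 4.0, 4.59 and 4.57 (difference -1.75 ± 0.36, adjusted p = 0.0140). In both genes all dexamethasone arrays lay below all saline arrays, and dexamethasone replicate C, an array set apart, was the lowest. Zbp1, a sensor of Z-form nucleic acid, differed by -1.72 ± 0.38 (adjusted p = 0.0210), and its saline values spread from 4.18 to 6.22. Parp14, an ADP-ribosyltransferase, differed by -1.29 ± 0.24 (adjusted p = 0.00635), and Xaf1, a promoter of apoptosis, by -0.87 ± 0.19 (adjusted p = 0.0167). The other probe sets of these genes were dimmer, with mean levels of 2.20 to 3.87, and did not pass: Rsad2 (-0.68 and -1.06, adjusted p = 0.235 and 0.203), Rtp4 (-0.28, adjusted p = 0.0991), Zbp1 (-0.49, adjusted p = 0.270), Parp14 (-0.26, adjusted p = 0.326) and Xaf1 (-0.31, adjusted p = 0.192). Ifi35 (0.27, adjusted p = 0.472) lay above 0, and Mx1 and Mx2 read -0.11 and -0.36 (adjusted p = 0.778 and 0.143).

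Psmb9, an immunoproteasome subunit, read 6.61, 5.91, 5.93, 7.30 and 6.51 after saline and 4.95, 5.71, 4.8, 5.07 and 5.02 after dexamethasone. The highest dexamethasone array, replicate C, came close to the lowest saline array without reaching it, and the difference was -1.34 ± 0.26 (adjusted p = 0.00851). Psmb8, its partner subunit, differed by -0.78 (adjusted p = 0.0739) and Tap1, a peptide transporter, by -0.59 (adjusted p = 0.513). Igtp, an immunity-related GTPase, fell by 1.08 (SE 0.25, adjusted p = 0.0257), and Ifih1, the RNA sensor MDA5, by 0.71 (SE 0.18, adjusted p = 0.0447).

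Among the members that did not pass, Dhx58 (-0.98, adjusted p = 0.0572), Ddx58 (-0.55, adjusted p = 0.105) and Gbp3 (-0.66, adjusted p = 0.129) had groups that did not overlap. Dhx58 and Ddx58 encode the RNA sensors LGP2 and RIG-I. Iigp1, an immunity-related GTPase, differed by -1.49 (adjusted p = 0.0767), while its other probe set fell by 1.63 and passed (adjusted p = 0.0460). Gbp2 likewise differed by -0.61 (adjusted p = 0.461) on its brighter probe set and fell by 0.85 on another (adjusted p = 0.0340). Gbp7 (-1.02), the chemokine Cxcl9 (-1.08), Oasl2 (-0.81) and Irgm1 (-0.68) had wide spreads, with adjusted p from 0.0937 to 0.449. The chemokine Cxcl10 read -0.30 (adjusted p = 0.634). Usp18, the protease that removes ISG15 and damps receptor signalling, lay above 0 (0.11, adjusted p = 0.938), with overlapping values of 5.44 to 6.19 after saline and 5.20 to 6.55 after dexamethasone. Oas2 (0.06, adjusted p = 0.934) and Oasl1 (-0.14, adjusted p = 0.938), of the oligoadenylate synthetase family, were close to 0.

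**Figure D3:**
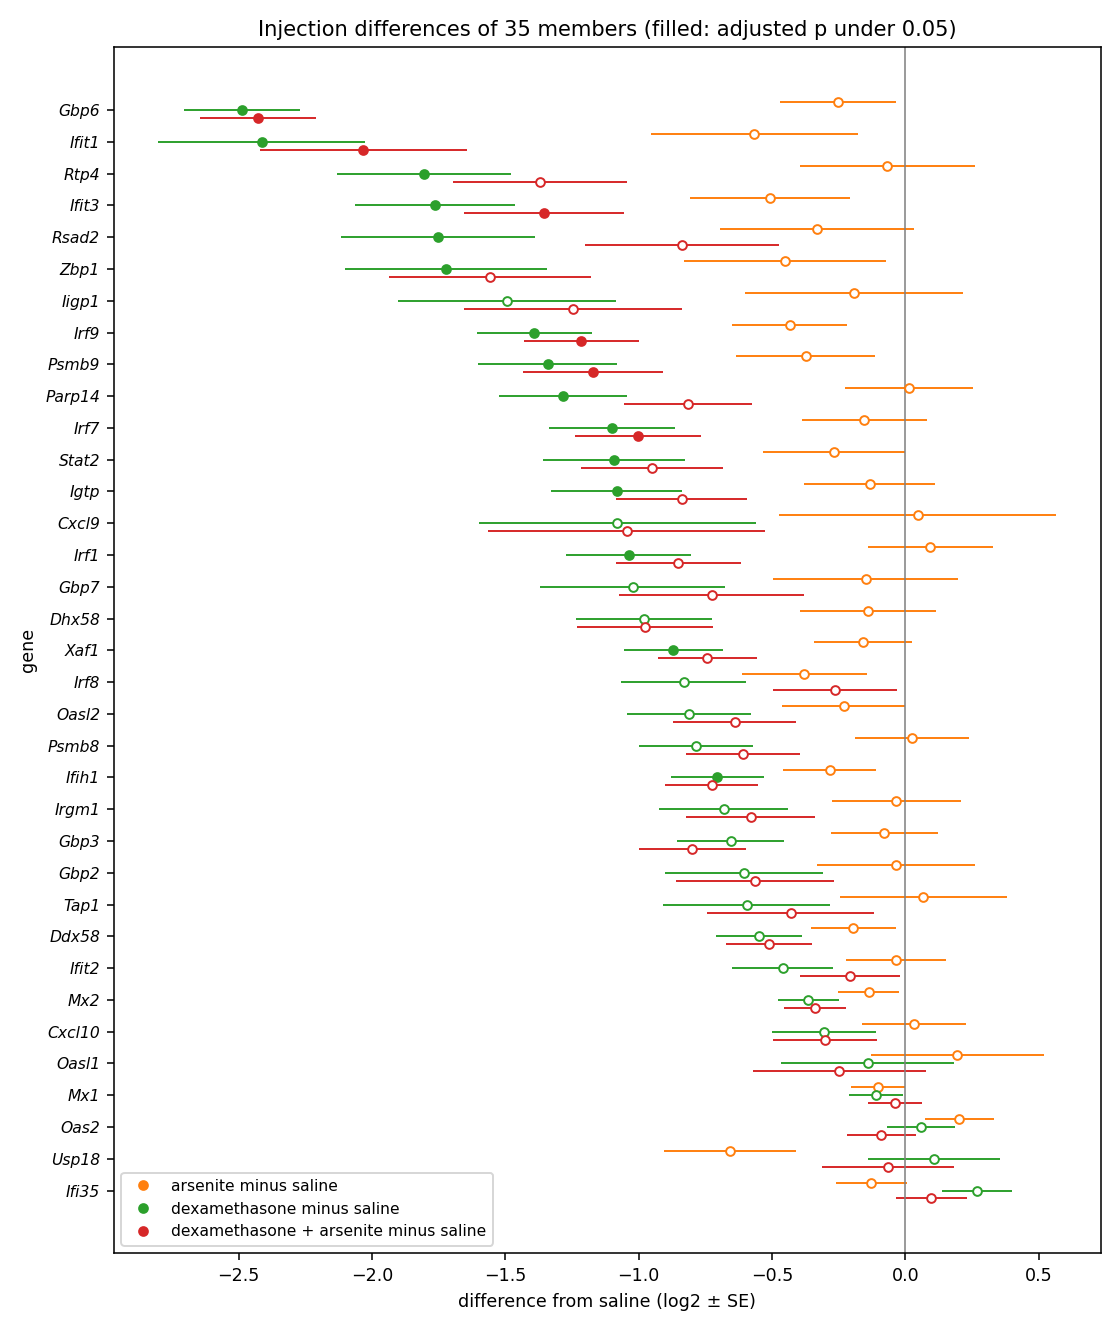
Difference from saline on the log2 scale (horizontal, ± SE) of the 35 members (vertical) after arsenite, dexamethasone or both. Filled points have an adjusted p under 0.05. Dexamethasone points are filled for 15 members, those of both agents for 6, and none of the arsenite points is filled.

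The dexamethasone count of 15 became 10 to 15 when any 1 other array was left out, and 8 without saline replicate E: Gbp6, Irf9, Ifit1, Ifit3, Rtp4, Parp14, Psmb9 and Rsad2. The median over members was then -0.77, with 31 of 35 below 0. That array also had the highest level of neutrophil markers (6.01, against 2.85 to 3.21 on the other 4 saline arrays) and of Kupffer cell markers (8.75, against 6.11 to 7.19). Without any array set apart, 13 members were called, with a median of -0.93.

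Most markers of some immune cells also had differences below 0 after dexamethasone, although no marker of any cell type list passed. The 10 Kupffer cell markers had a median difference of -0.75, with 10 of 10 below 0, and their mean level ran from 6.02 to 6.46 after dexamethasone and from 6.11 to 8.75 after saline. The 8 neutrophil markers measured had a median of -0.72 (7 of 8 below 0), with levels of 2.30 to 2.51 against 2.85 to 6.01. The 6 MHC class II markers had a median of -0.76 (6 of 6 below 0), with levels of 3.92 to 4.88 against 4.15 to 5.75. Without saline replicate E these medians were -0.37, -0.05 and -0.50, beside -0.77 for the members. Those of T and NK cells (-0.09, 10 of 10 below 0), B cells (-0.12, 4 of 4), plasmacytoid dendritic cells (-0.12, 5 of 5) and endothelium (-0.09, 3 of 6) were closer to 0, and hepatocyte markers stood at 0.07. Bst2, a marker in the plasmacytoid dendritic cell list, is itself a type I interferon target. Acute phase genes (16) had a median of -0.37. The part of these cells in the result was not tested.

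Other genes of the pathway came from a list of 97, of which 84 were measured. After dexamethasone 10 fell and none rose, with a median of -0.30. Nearly all were target genes: 6 of 39 other type I targets and 3 of 16 other type II targets, while of the genes that start the response none of 5 interferons, 6 receptors and 10 sensors or adaptors passed. Tyk2, a receptor-bound kinase, was the 1 of 8 kinases, STATs and inhibitors that fell (-0.74, adjusted p = 0.0143). The smallest p-values were those of Psmb10, the remaining immunoproteasome subunit (-1.20, adjusted p = 0.000232), Ube2l6, an enzyme that attaches ISG15 (-0.87, adjusted p = 0.00115), Parp9 (-0.63, adjusted p = 0.00115) and Irgm2, an immunity-related GTPase (-1.80, adjusted p = 0.00812).

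With dexamethasone and arsenite together, fewer members passed against the same saline arrays. Of the 35, 6 fell and none rose, where 1.39% of all genes passed. The median was -0.74, 34 of 35 lay below 0 (51.1% of all genes) and 10 did not overlap with saline (1.61% of all genes). The 6 were Gbp6 (-2.43 ± 0.22, adjusted p = 1.919e-05), Irf9 (-1.21 ± 0.22, adjusted p = 0.00679), Ifit1 (-2.03 ± 0.39, adjusted p = 0.0119), Ifit3 (-1.36 ± 0.30, adjusted p = 0.0320), Psmb9 (-1.17 ± 0.26, adjusted p = 0.0333) and Irf7 (-1.0 ± 0.23, adjusted p = 0.0460). Gbp6 read 2.49, 2.98, 2.58, 2.4 and 3.27 with both agents, all below every array of the saline and arsenite groups. Ifit1 read 2.43, 2.45, 2.94, 5.17 and 4.18, and replicate E, an array set apart, stood just below the lowest saline array at 5.28. Rsad2, at 5.38, 4.68, 4.03, 6.79 and 5.47, had replicate E above every saline array. The count of 6 became 3 without any 1 of saline replicates A, E or F or of replicates C or D of the group given both. In the pathway list 5 genes fell against saline: Ube2l6 (-0.99), Mov10 (-0.95), Psmb10 (-0.70), Lgals9 (-0.56) and Eif2ak2 (-0.54).

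Set directly against dexamethasone alone, both agents together changed no member, nor any gene at all (0% of 18193). The smallest p-values were those of Rsad2 (0.91 ± 0.36), Irf8 (0.57 ± 0.23) and Parp14 (0.47 ± 0.24), each with an adjusted p of 1.00. At an unadjusted p under 0.05 there were 2 members, against 4.38% of all genes. The median over members was 0.14 (0.05 without the arrays set apart) and 6 of 35 lay below 0, against 46.1% of all genes. The interaction of the agents likewise passed for 0 of 35 members and 0% of genes, with 3 members at an unadjusted p under 0.05 (3.78% of all genes). Its smallest p-values were those of Irf8 (0.95 ± 0.33), Rsad2 (1.25 ± 0.52) and Ifit3 (0.91 ± 0.42). These misses do not show that the treatments acted alike.

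Against arsenite alone, both agents together lowered Gbp6 (-2.18 ± 0.22, adjusted p = 4.484e-05) and no other member, where 1.28% of all genes passed. Irf1 (-0.95, adjusted p = 0.0665) and Rtp4 (-1.30, adjusted p = 0.0739) came next, and the median over members was -0.58. Of the 35 members 31 lay below 0 (51.1% of all genes), and 22 had an unadjusted p under 0.05 (13.1% of all genes). A second Stat2 probe set also fell (-0.65, adjusted p = 0.0338), as did a second one of Gbp6 (-1.45, adjusted p = 0.0103). The count of 1 became 2 without arsenite-injected replicate E, and 3 without its replicate D or without replicate A of the group given both. It became 4 or 5 without replicate E or F of the latter, and 4 without the arrays set apart.

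For arsenite alone against saline, no member and no gene passed (0%). Of the 35 members 27 lay below 0, against 51.4% of all genes, the median was -0.14, and 1 member had an unadjusted p under 0.05 against 3.27% of all genes. That member was Usp18 (-0.66 ± 0.25, adjusted p = 1.00), which read 5.18, 5.73, 4.70, 4.69 and 5.26 after arsenite and 5.70, 5.44, 5.96, 6.19 and 5.56 after saline. A single arsenite array, replicate B, lay within the saline range. Irf9 (-0.43) and Ifit3 (-0.51) followed, both with overlapping groups. Saline-injected livers were also set against livers of undisturbed AIN-76A controls of the other experiment. No member passed (0% of all genes), the median was -0.02 (-0.04 without the arrays set apart), and the smallest p-values were those of Irf8 (0.49), Mx2 (0.20) and Ifit2 (-0.32), each with an adjusted p of 1.00. Injection, time on the diet and experiment cannot be told apart there.

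**Figure D4:**
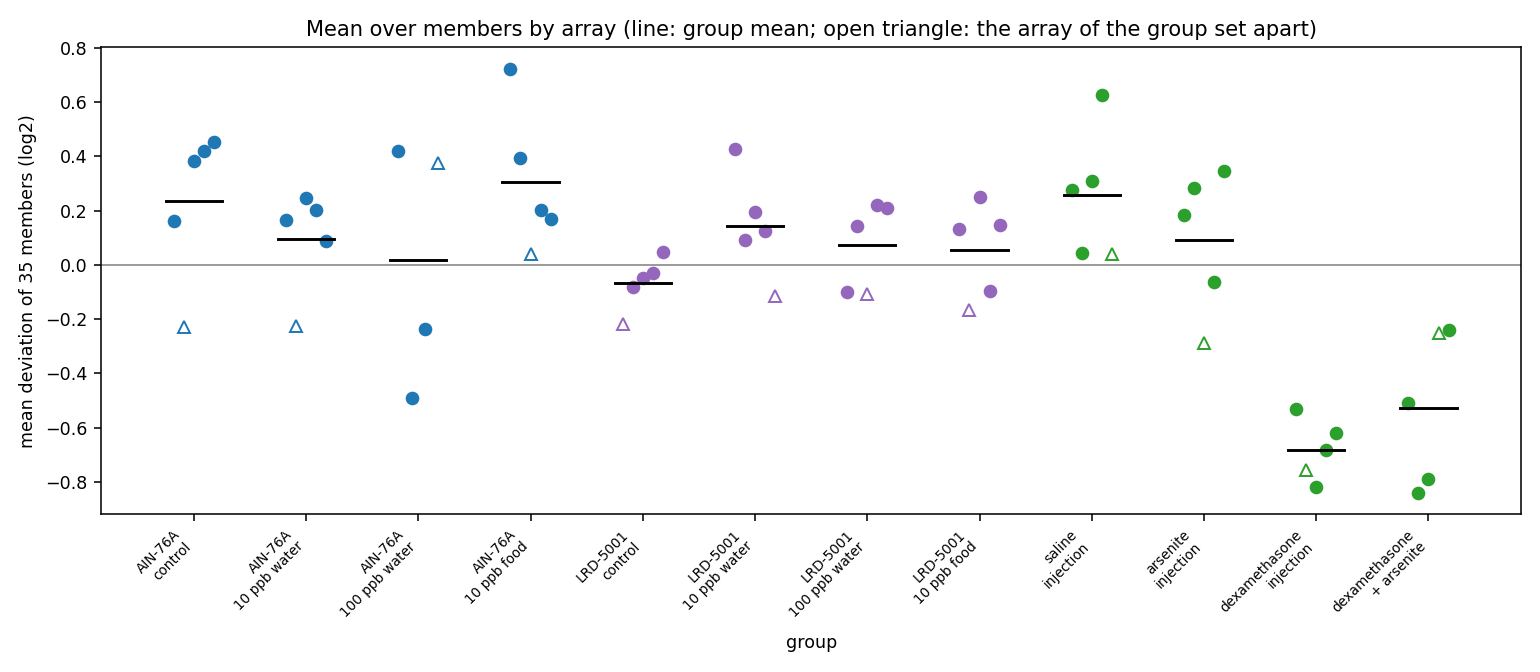
Points are arrays, by group (horizontal). The vertical axis gives the mean over 35 members of the deviation from each member's mean over the 59 arrays, on the log2 scale. Lines are group means and open triangles the arrays set apart. Dexamethasone arrays lie between -0.82 and -0.53, below all arrays without dexamethasone.

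The mean deviation over the 35 members gives each array 1 value. It was -0.68 ± 0.11 (SD, n = 5) after dexamethasone and -0.53 ± 0.29 with both agents, against 0.26 ± 0.24 after saline and 0.09 ± 0.26 after arsenite. Arrays given dexamethasone alone ran from -0.82 to -0.53. Those given both ran from -0.84 to -0.24, and the upper end lay within the range of the groups without dexamethasone, whose lowest array read -0.49. Over the 8 groups of the first experiment the means ran from -0.07 ± 0.10 in LRD-5001 controls to 0.31 ± 0.27 with 10 ppb in food on AIN-76A. The widest spread was that of AIN-76A with 100 ppb in water (0.02 ± 0.45, n = 4).

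Diet moved fewer members and by less. Averaged over the 4 exposures, 3 of 35 members fell on LRD-5001 relative to AIN-76A and none rose. Over all genes 6.56% passed and 2.49% were lower. Of the 35 members 27 lay below 0, against 52.8% of all genes, and the median was -0.08 against -0.01 (-0.14 over members after quantile normalization).

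Irf7 fell by 0.71 on LRD-5001 (SE 0.12, adjusted p = 0.000116). In the controls it read 6.07, 6.64, 6.96, 6.80 and 6.81 on AIN-76A and 5.91, 5.34, 5.55, 6.31 and 5.48 on LRD-5001. At 10 ppb in water it read 6.86, 6.49, 6.44, 6.16 and 6.39 against 6.04, 5.70, 5.81, 5.94 and 5.54. At 100 ppb in water it read 6.76, 5.56, 6.07 and 7.01 against 5.17, 6.08, 6.02, 5.64 and 5.68, and at 10 ppb in food 6.96, 6.59, 6.51, 5.87 and 6.35 against 6.30, 6.07, 6.07, 5.42 and 5.45. The diets did not overlap at 10 ppb in water and overlapped at the other exposures.

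Psmb8 fell by 0.33 (SE 0.07, adjusted p = 0.00275), with group means of 6.99, 7.0, 6.64 and 7.06 on AIN-76A, in the order of controls, 10 ppb in water, 100 ppb in water and 10 ppb in food. On LRD-5001 they were 6.52, 6.55, 6.68 and 6.63, so that the means lay closest at 100 ppb in water. Xaf1 fell by 0.35 (SE 0.09, adjusted p = 0.0113), with means of 5.97, 5.71, 5.57 and 5.92 on AIN-76A and 5.31, 5.58, 5.39 and 5.49 on LRD-5001. All 4 differences of Xaf1 had the same sign, and the arrays of the diets overlapped at each exposure. The second probe sets of Psmb8 and Xaf1 were dim, at mean levels of 2.02 and 2.32, and did not pass. They read -0.09 and -0.04 (limma, adjusted p = 0.521 and 0.877). Gbp6 had the largest difference above 0 (0.58 ± 0.27), and did not pass (adjusted p = 0.298).

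**Figure D5:**
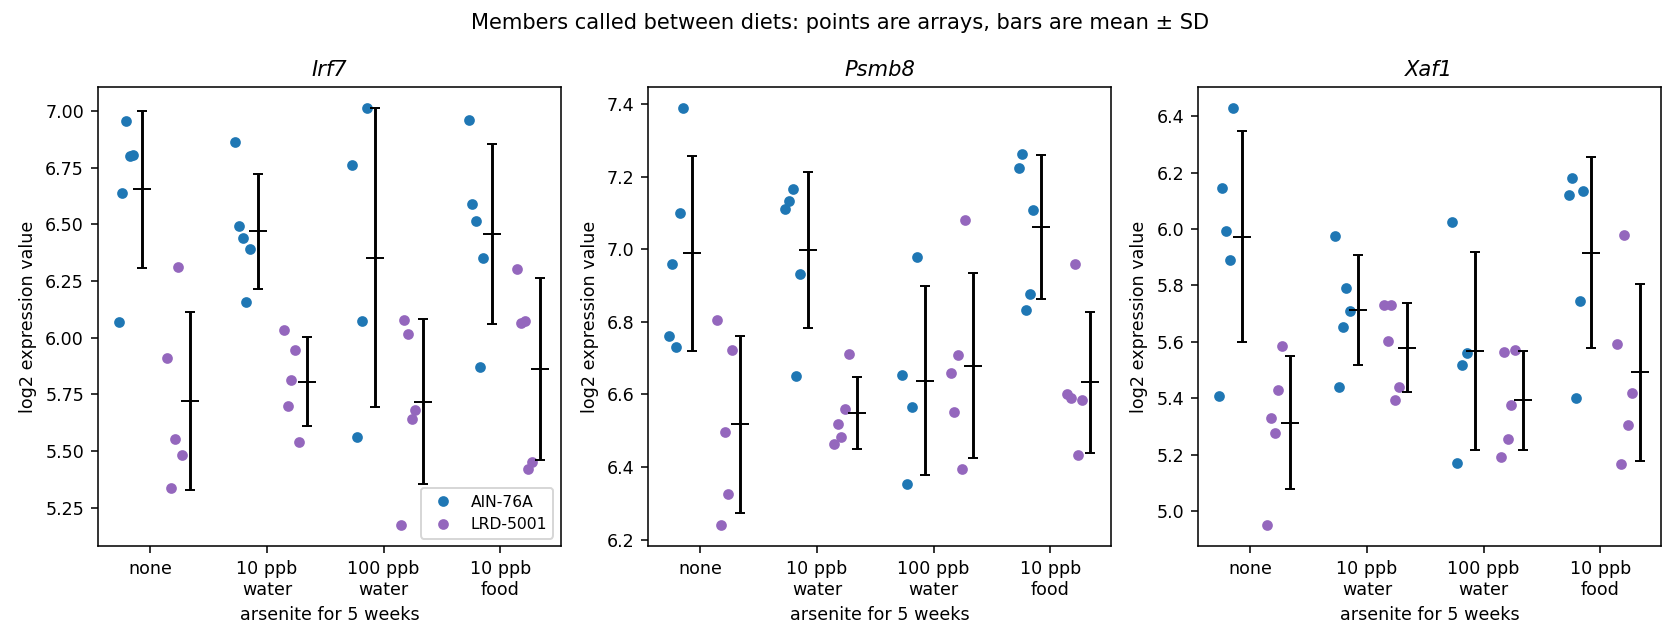
Expression values on the log2 scale (vertical) of Irf7, Psmb8 and Xaf1 by arsenite exposure (horizontal) on each diet. Points are arrays and black bars are the mean ± SD. Irf7 lies lower on LRD-5001 at all 4 exposures, while the Psmb8 means at 100 ppb in water, 6.64 and 6.68, are close.

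In the pathway list 11 genes were lower on LRD-5001 and none higher, 10 of them among 39 other type I targets and none among 16 other type II targets. The smallest p-values were those of Ifitm3, which blocks viral entry (-0.41, adjusted p = 7.249e-07), Oas1a, an oligoadenylate synthetase (-0.73, adjusted p = 1.065e-05), Ifi27 (-0.59, adjusted p = 3.599e-05) and Ly6e (-0.88, adjusted p = 0.000338). Among receptors Ifngr1 was lower (-0.29, adjusted p = 0.00470). Markers of other cells moved with diet too. Kupffer cell markers were lower for 4 of 10 (Clec4f, Cd5l, C1qa and Csf1r; median of the list -0.37), neutrophil markers for 2 of 8 (S100a8 and S100a9), and acute phase genes for 9 of 16 (median -0.48). The B cell marker Ighm was lower (-2.40), as was Ly6d of the plasmacytoid dendritic cell list (-0.67). The MHC class II markers H2-Aa, H2-Ab1 and H2-Eb1 were higher (0.77, 0.49 and 0.68). Kupffer cell levels ran from 6.51 to 7.63 on LRD-5001 and from 6.75 to 7.79 on AIN-76A. The part of these cells in the diet result was not tested.

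Within single exposures no member passed between diets. In the controls, where 0.890% of all genes passed, the nearest were Irf7 (-0.94, adjusted p = 0.0534), Xaf1 (-0.66, adjusted p = 0.0699) and Parp14 (-0.72, adjusted p = 0.145). There 29 of 35 lay below 0 (49.3% of all genes), with a median of -0.25 (-0.41 without the arrays set apart), and 11 had an unadjusted p under 0.05 (9.63% of all genes). The count of 0 became 2 without AIN-76A control replicate B, which had the lowest Irf7 of its group, and 1 without LRD-5001 control replicate E. At 10 ppb in water (0.539% of all genes) the nearest were Psmb8 (-0.45, adjusted p = 0.235), Irf7 (-0.66, adjusted p = 0.397) and Ifi35 (0.33, adjusted p = 0.435). At 10 ppb in food (0.473%) they were Psmb8 (-0.43, adjusted p = 0.400), Oasl2 (-0.77, adjusted p = 0.519) and Irf7 (-0.59, adjusted p = 0.772), with a median over members of -0.30 (-0.20 with the mean of a gene's probe sets). At these 2 exposures 8 and 4 members had an unadjusted p under 0.05, against 8.53% and 6.10% of all genes.

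At 100 ppb in water 3.12% of all genes differed between diets, and again no member did, with 5 at an unadjusted p under 0.05 (17.1% of all genes). Mx2, a dynamin-like GTPase, differed by -0.43 without overlap (adjusted p = 0.0538), Ifih1 by 0.59 (adjusted p = 0.109) and Zbp1 by -0.69 (adjusted p = 0.213). Mx2 read 3.92, 3.70, 4.18 and 3.81 on AIN-76A and 3.22, 3.68, 3.17, 3.57 and 3.68 on LRD-5001. The nearest arrays of the diets were thus almost level. The count became 1 without AIN-76A replicate A or LRD-5001 replicate D, where Ifih1 was higher on LRD-5001. It also became 1 without LRD-5001 replicate B or F, where Mx2 was lower. Without the arrays set apart it was 2, with 0 lower on LRD-5001 and Ifih1 among them (0.75).

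After 5 weeks of arsenite no member passed against controls on either diet, which does not show that arsenite was without effect. On AIN-76A, 10 ppb in water passed for 0% of all genes, 100 ppb in water for 0.0110% and 10 ppb in food for 0%. On LRD-5001 all 3 exposures passed for 0%. At an unadjusted p under 0.05 there were 3, 7 and 0 members on AIN-76A (4.84%, 10.4% and 3.47% of all genes) and 4, 0 and 1 on LRD-5001 (2.30%, 2.35% and 2.32%). The medians over members were -0.12, -0.19 and 0.07 on AIN-76A and 0.27, 0.11 and 0.13 on LRD-5001. Without the arrays set apart the median for 100 ppb on AIN-76A was -0.46 and that for food 0.02, which was -0.005 after quantile normalization. The 3 exposures of a diet share its control arrays.

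On AIN-76A with 10 ppb in water the smallest p-values were those of Parp14 (-0.62), Igtp (-0.49) and Irgm1 (-0.36), each with an adjusted p of 0.993. With 100 ppb they were those of Mx2 (0.37, adjusted p = 0.277), Cxcl9 (-1.64, adjusted p = 0.328) and Ifih1 (-0.55, adjusted p = 0.333). Cxcl9 read 6.24, 4.66, 3.01 and 6.06 with 100 ppb, and 6.82, 4.95, 6.34, 8.68 and 6.36 in the controls. Its values overlapped and spread the most of all members, with a within-group SD of 0.90. Ifih1 read 7.12, 6.59, 6.49 and 6.81 against 7.46, 6.74, 7.29, 7.39 and 7.63, overlapping through control replicate C, an array set apart. Without the arrays set apart Cxcl9 (-2.41, adjusted p = 0.0314) and Ifih1 (-0.71, adjusted p = 0.0210) passed. Among others, this dropped replicate D of the 100 ppb group, which then was smaller still, and control replicate C. Of 9 omissions of a single array, none made either gene pass.

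With 10 ppb in food on AIN-76A the nearest were Gbp2 (0.31), Mx1 (-0.14) and Cxcl10 (0.28). On LRD-5001 they were Rsad2 (0.63), Ifit1 (0.87) and Stat2 (-0.67) with 10 ppb in water, Parp14 (0.41), Rsad2 (0.48) and Gbp2 (0.34) with 100 ppb, and Zbp1 (0.58), Parp14 (0.37) and Irgm1 (0.27) with food. All of these had an adjusted p of 1.00. Rsad2 did not overlap between 10 ppb in water and controls on LRD-5001, the 1 member of 35 that lay clear on the higher side, against 0.286% of all genes.

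Between 100 and 10 ppb in water on AIN-76A no member passed, where 1.09% of all genes did. Mx2 (0.45, adjusted p = 0.0793), Igtp (0.74, adjusted p = 0.123) and Ifih1 (-0.61, adjusted p = 0.148) were nearest, and 6 members had an unadjusted p under 0.05 (13.5% of all genes). The count became 3 without replicate A of the 100 ppb group (2 of them lower at 100 ppb) and 2 without the arrays set apart (2 lower). On LRD-5001 the same comparison gave 0 members and 0% of genes, with Mx2 (-0.24), Stat2 (0.55) and Ifi35 (-0.18) nearest. Food against water at 10 ppb gave 0 members and 0% of genes on both diets. The nearest were Parp14 (0.57), Gbp2 (0.43) and Igtp (0.46) on AIN-76A, and Mx2 (-0.36), Rsad2 (-0.49) and Ifit1 (-0.64) on LRD-5001.

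The test of whether arsenite acted differently on the diets also passed for no member and 0% of genes at each exposure. At 10 ppb in water 8 members had an unadjusted p under 0.05 (4.53% of all genes), led by Parp14 (1.03), Irgm1 (0.70) and Igtp (0.79), each with an adjusted p of 1.00. The median over members was 0.32. At 100 ppb there were 6 (6.71%), led by Parp14 (0.92, adjusted p = 0.694), Ifih1 (0.79, adjusted p = 0.694) and Psmb8 (0.51, adjusted p = 0.740). At 10 ppb in food there were 0 (2.25%), with Zbp1 (0.57), Irgm1 (0.36) and Gbp2 (-0.40) nearest, each with an adjusted p of 1.00.

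Members also varied together among mice of the same group. Their median within-group SD was 0.39, from 0.14 to 0.90, against 0.23 over all genes. The 0.23 covers genes of every brightness, while 27 members lay above the upper quartile of level, so this comparison was not matched for brightness. Behind Cxcl9 the widest were Gbp6 (0.75), Ifit1 (0.65) and Ifit3 (0.57). In AIN-76A with 100 ppb in water (n = 4) the SDs of Ifit1 and Ifit3 were 1.57 and 1.67, so this group weighs heavily in their values. Over the 59 arrays, the deviations from group means of the 27 brighter members had a median correlation of 0.30 over 351 pairs, and of 0.27 without the arrays set apart. Over 7024 genes of the same brightness class the corresponding values were 0.14 and 0.04. The pairs share arrays, RNA samples and normalization, and the figures are a description.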

How the data were processed

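The deposited values are log2 expression values per probe set, which the authors made from 1-colour Affymetrix arrays with RMA (per the submitters' processing notes). For RMA, software, version and settings: not given in the sources used here. RMA draws dim probe sets together, so differences of dim genes can be understated. The values were used unfiltered and without further normalization. After leaving out 64 controls of 45101 probe sets, 34945 carried 1 symbol in the platform annotation, 932 several and 9160 none.

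Using limma 3.58.1 (R 4.3.3), group means were fitted for the 39 arrays of the 5-week experiment, for the 20 injection arrays, and over all 59 arrays for saline-injected against undisturbed mice. P-values were adjusted by Benjamini-Hochberg over 45037 probe sets, with a threshold of 0.05. The scripts were tested on simulated data. The members and lists were chosen with earlier results of these data known. Named with values are members that passed (up to 12 by p, here with the rest added), otherwise the 3 smallest p, and up to 4 pathway genes. A second promoter motif that was searched is not reported here. No 2 arrays held the same values. Replicate letters shared between groups gave no sign of pairing the samples. In 0 of 20 comparisons was every pair's correlation of deviations over 0.1 (range -0.47 to 0.45). This rule needs every pair of a comparison to correlate, so a weak pairing could escape it.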

Additional observations from a re-analysis of the deposited data

Results flagged for a closer look

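Of 73 groups of values examined for a single array far from the others, 1 was singled out, where chance alone gives about 1 in 20. Ifih1 in the saline-injected mice read 7.59 on replicate C and 7.20 to 7.31 on the other 4 arrays, a gap of 0.722 of the group's range. The call of Ifih1 after dexamethasone (-0.71, adjusted p = 0.0447 with limma and Benjamini-Hochberg) was lost without that array, among others, with adjusted p between 0.0129 and 0.137 over its alternatives.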

How the results depend on the processing

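No member difference that passed changed sign under any alternative. The median over members was recomputed under the alternatives other than single arrays left out. It turned below 0 in 3 comparisons without a called member, each after quantile normalization. They were 10 ppb in food on AIN-76A (0.072 to -0.005) and the diets at 10 ppb in water (0.026 to -0.039) and 100 ppb in water (0.005 to -0.036). For the last it did so also with the mean of probe sets (-0.013). Without the arrays set apart the medians between diets moved the other way, to 0.068 at 10 ppb in water and 0.147 at 100 ppb in water. Leaving out 1 array in turn gave 8 to 15 members called after dexamethasone (15 with all arrays), 3 to 8 for both agents against saline (6), 1 to 5 for both against arsenite (1), 0 to 3 for 100 against 10 ppb in water on AIN-76A (0), 0 to 1 between diets at 100 ppb in water (0) and 0 to 2 between diets in controls (0). Both agents against saline gave 17 members with all 59 arrays in 1 fit, 12 without dim probe sets, 10 with the arrays set apart as a block, 10 with the mean of a gene's probe sets, and 3 with the 2 groups alone. Both against arsenite gave 10 in 1 fit of all arrays, 5 after quantile normalization, 4 without the arrays set apart, 3 with them as a block, 3 without dim probe sets and 2 with the mean of probe sets. Diets at 100 ppb in water gave 2 with the arrays set apart as a block (1 lower on LRD-5001) and 2 without them (0 lower). They gave 1 each, lower on LRD-5001, without dim probe sets, with the mean of probe sets and after quantile normalization. Diets in controls gave 2 with that block and 2 without dim probe sets, and 1 each with the mean of probe sets and after quantile normalization. For 100 against 10 ppb on AIN-76A the block gave 2 (1 lower at 100 ppb), leaving those arrays out 2 (2 lower) and the mean of probe sets 1 (0 lower). For 100 ppb against controls on AIN-76A leaving them out gave 2. The averaged diet contrast gave 5 with the mean of probe sets. The cause of these moves was not tested.

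The replicate letters gave no sign of pairing the samples. With the letter as a replicate block all the same, both agents against saline gave 3 members and dexamethasone 10. After dexamethasone Gbp6, Ifit1, Ifit3, Irf9, Parp14, Psmb9 and Rtp4 passed under all 19 alternatives, Rsad2 and Xaf1 under 18, Irf1 and Irf7 under 15, Igtp and Zbp1 under 13, Stat2 under 9 and Ifih1 under 8. Between diets Irf7, Psmb8 and Xaf1 passed under all 47. Groups of 4 or 5 arrays, and probe sets near background such as Mx1, Ifit2 and Gbp2, limit what could be detected.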
